A study of Homo sapiens with 6 samples.

Results

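Ubiquitin-conjugating enzymes, or E2 enzymes, were examined as the protein-coding genes of the deposited table whose symbols begin with UBE2. This rule took 37 of the 58938 entries and used no measured value. A mean of at least 1 FPKM (sequenced fragments per kilobase of a gene's exons, put on a common scale between libraries by the authors) over the 6 libraries was reached by 32 of the 37, which were tested among 13036 genes in all.

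The RNA came from HCT116, an established human colorectal cancer cell line grown in IMDM with serum. Per the labels, cells were lipofected at 60% density, given new medium after 6 hours and harvested for RNA at 30 hours. The vector group (3 libraries, genotype labelled WT) was compared with the MST3 group (3 libraries, genotype labelled as overexpressing MST3 from a plasmid). MST3, the product of STK24, is a serine/threonine kinase related to yeast Ste20, and the study asked what it regulates in colon cancer cells. The model is a single cell line with a plasmid introduced by transfection, so MST3 was added to cells that already express it.

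Ubiquitin reaches its targets through a relay. An E1 enzyme activates it, an E2 enzyme carries it as a thioester on an active-site cysteine, and an E3 ligase brings the loaded E2 to the substrate. The E2 often decides which linkage the ubiquitin chain takes, and some E2 enzymes carry the related modifiers, such as NEDD8 or ISG15, instead. In dividing cells UBE2C starts and UBE2S extends the chains that the anaphase-promoting complex (APC/C) builds on mitotic cyclins and securin, and UBE2T acts in the Fanconi anaemia pathway of DNA crosslink repair.

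The active site that makes these proteins E2 enzymes can be read in the coding sequences, and it is shown for 6 members with different modifiers or linkages. In the stretches below, in coding direction from GENCODE 29, capitals mark the codons of the histidine-proline-asparagine motif and of the cysteine that lies 8 codons after it. Each stretch lies within 1 coding exon on GRCh38: exon 4 of UBE2C (chr20:45815634-45815666, plus strand), exon 3 of UBE2S (chr19:55404345-55404377, minus), exon 4 of UBE2T (chr1:202333477-202333509, minus), exon 4 of UBE2M (chr19:58556701-58556733, minus), exon 3 of UBE2L3 (chr22:21610959-21610991, plus) and exon 2 of UBE2N (chr12:93411069-93411101, minus).
UBE2C: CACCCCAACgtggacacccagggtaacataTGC
UBE2S: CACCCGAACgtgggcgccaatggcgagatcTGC
UBE2T: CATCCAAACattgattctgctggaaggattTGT
UBE2M: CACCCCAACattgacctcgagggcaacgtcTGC
UBE2L3: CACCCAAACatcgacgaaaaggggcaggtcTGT
UBE2N: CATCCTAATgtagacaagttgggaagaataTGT
The motif was found in a coding transcript of 22 of the 36 members that have one in the annotation, and 19 of the 22 have the cysteine codon at that distance. UBE2H, UBE2K and UBE2U have the motif without a cysteine codon at exactly that distance, and other distances were not searched. Among the 14 without the motif are UBE2V1 and UBE2V2, which are known as E2 variants without a catalytic cysteine. Also among the 14 are UBE2E1, UBE2E2, UBE2E3, UBE2W, UBE2J1, UBE2J2, UBE2O and UBE2Z, described below as enzymes. Absence of these letters therefore does not mark a member as inactive.

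The 2 members of the cell cycle group with a promoter entry in the RefSeq table (GRCh38.p14) were UBE2S and UBE2T. The 150 bases from 200 to 51 bases before each annotated start are shown because promoters of mitotic genes are known for pairing CCAAT boxes with a cell cycle homology region (CHR). The UBE2S window is chr19:55407839-55407988 and the UBE2T window is chr1:202341987-202342136, both printed along the gene's own minus strand. Capitals mark CCAAT on either strand (read as ATTGG on the other) and the CHR letters TTTGAA.
UBE2S: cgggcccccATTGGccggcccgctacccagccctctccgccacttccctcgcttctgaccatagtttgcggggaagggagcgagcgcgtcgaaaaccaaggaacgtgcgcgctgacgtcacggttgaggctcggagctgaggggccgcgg
UBE2T: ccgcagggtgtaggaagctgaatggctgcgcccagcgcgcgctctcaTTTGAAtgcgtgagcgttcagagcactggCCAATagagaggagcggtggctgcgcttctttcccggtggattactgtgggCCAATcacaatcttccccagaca
In the UBE2T window the CHR letters end 148 bases before the start and the CCAAT boxes begin 124 and 73 bases before it. The CHR letters thus lie farther from the start than both boxes, and bases after the start were not searched. In the 250 bases before the start, searched on both strands, CCAAT was present in 9 of 28 matched E2 promoters (32.1%) and in 32% of 35116 promoters in the table. TTTGAA was present in 4 of the 28 (14.3%) against 13.3% of all promoters, and the same 4 (UBE2T, UBE2F, the UBE2F-SCLY readthrough and UBE2U) held both motifs, against 4.69% of all. UBE2F and UBE2F-SCLY lie at the same locus. The E2F letters TTTGGCGC or TTTCCCGC were in none of the 28 and in 1.93% of all promoters. Such matches describe the letters and are not binding sites.

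Each library gave 15289213 to 17708029 reads recovered from the FPKM values, and 1 read on a 1 kb gene was worth 0.0569 to 0.0627 FPKM. MST3 replicate 1 had the fewest reads but the most genes with any read, 27442 against 25099 to 25501 in the other libraries. STK24 stood at 17.1, 17.4 and 17.4 FPKM in the vector libraries and at 63.7, 72.2 and 76.0 in the MST3 libraries. It was 4.08-fold higher (adjusted p = 0.000998, limma) and was the only gene called among all 13036. Of the epithelial markers, EPCAM, KRT8, KRT18, KRT19 and CDH1 were at 26.7 FPKM or more in every library and CDX2 at 2.66 to 4.29, while CDX1 was listed at 0 and VIL1 reached at most 0.033. Leucocyte and endothelial markers reached at most 0.133 FPKM. Of the fibroblast markers COL1A1 stood at 3.72 to 4.97 FPKM, with COL1A2 at most 0.0052 and PDGFRB at most 0.082.

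HCT116 cells expressed most of the E2 family, from genes near the 1 FPKM limit to some of the more abundant transcripts. UBE2S and UBE2C averaged above 100 FPKM over the 6 libraries, 10 members lay between 20 and 100, 16 between 5 and 20, and 4 between 1 and 5. UBE2S and UBE2C alone held 30.7% of the FPKM summed over all members. The median tested member stood at 13.8 FPKM, against 5.81 for all tested genes and 7.14 for the protein-coding ones among them. The lowest tested member in any library, UBE2D4, still rested on 69 reads.

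**Figure D1:**
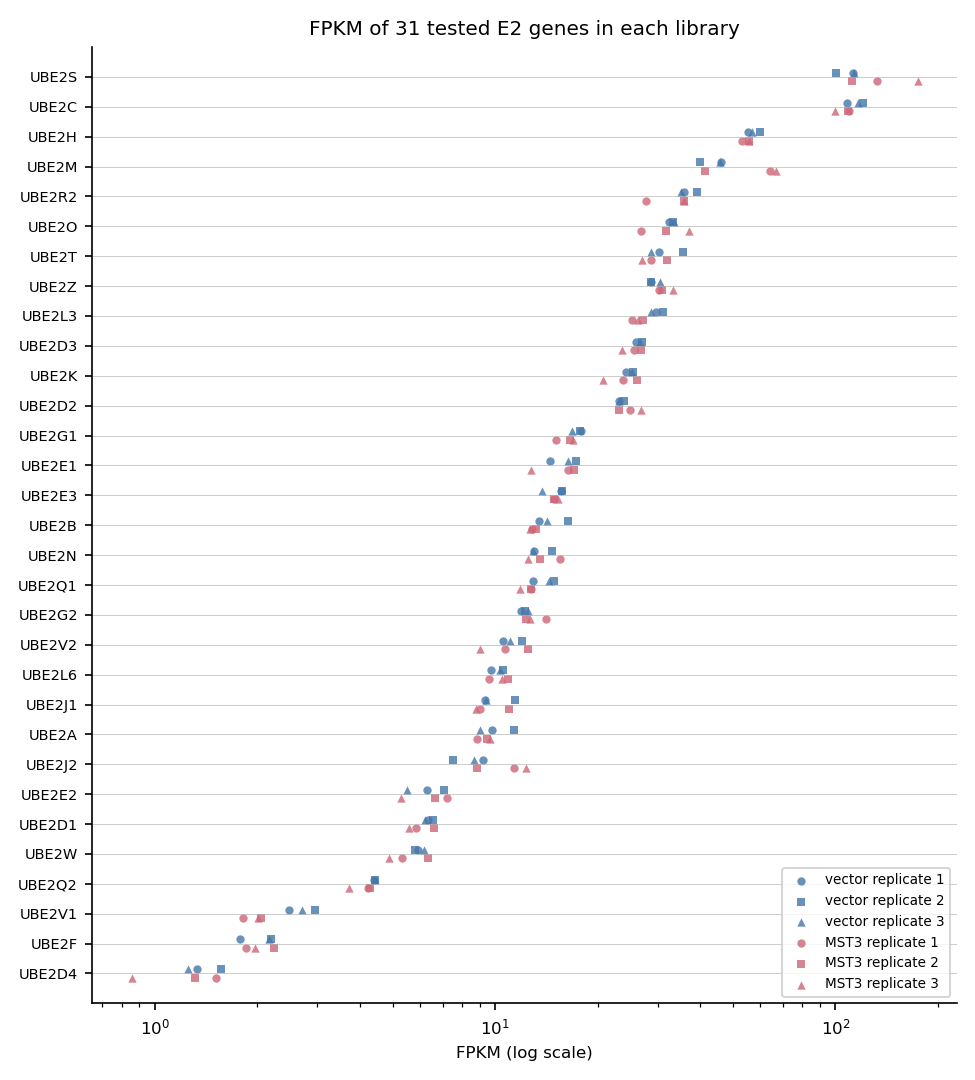
FPKM on a log axis of 31 tested E2 genes in each of the 6 libraries, ordered by their mean, with vector in blue and MST3 in red and a symbol for each replicate number. UBE2S and UBE2C lie above or near 100 FPKM in every library and UBE2D4 lies lowest, and in most rows the blue and red symbols overlap.

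MST3 overexpression was not followed by a called change in any E2 gene. None of the 32 tested members passed an adjusted p of 0.05 in limma (smallest 0.719), where 1 of 13036 genes, or 0.00767%, did. At an unadjusted p under 0.05 there were 2 members (UBE2V1 and UBE2J2), or 6.25%, against 5.38% of all tested genes. Differences in mean log2(FPKM + 1), MST3 minus vector, ran from -0.33 to 0.34, and 18 of the 32 were within 0.1 of 0. For 28 members the 95% interval of the difference lay within 0.5 of 0 on either side, and for all 32 it lay within 1. For members near 1 FPKM this scale understates a change, so these bounds are not limits on their fold change. UBE2D4 differed by -0.11 with 1 FPKM added and by -0.20 with 0.01 FPKM added. The labels do not say whether the replicate numbers are separate cultures, so these p-values measure only the spread between the samples, which may be technical. In bulk RNA a change in the number of cells that express a gene and a change in RNA per cell cannot be told apart.

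Below 0 were 22 of the 32 differences and above it 10, that is 68.8% below, against 53.4% of all tested genes. The median member differed by -0.06 and the median of all tested genes by -0.01. The 3 MST3 libraries lay below all 3 vector libraries for 5 members (UBE2V1, UBE2L3, UBE2Q1, UBE2B and UBE2Q2), or 15.6%, against 6.7% of all tested genes. No tested member was higher without overlap, against 5.19% of all tested genes. Taken singly, MST3 replicates 1 and 3 each had 17 of the 32 members below all vector libraries and 8 above, where 41% and 38.6% of all tested genes lay below and 30.7% and 37.5% above. MST3 replicate 2 had 8 below and 7 above, where 26.7% of all tested genes lay below and 23.8% above. Vector replicate 2 had 23 members above the other vector libraries and 6 below, against 40.7% and 35.3% of all tested genes. With vector replicate 2 left out, the median member differed by -0.02 and 19 of 32 were below 0. With MST3 replicate 3 left out these values were -0.01 and 19, and with MST3 replicate 2 left out -0.11 and 23.

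**Figure D2:**
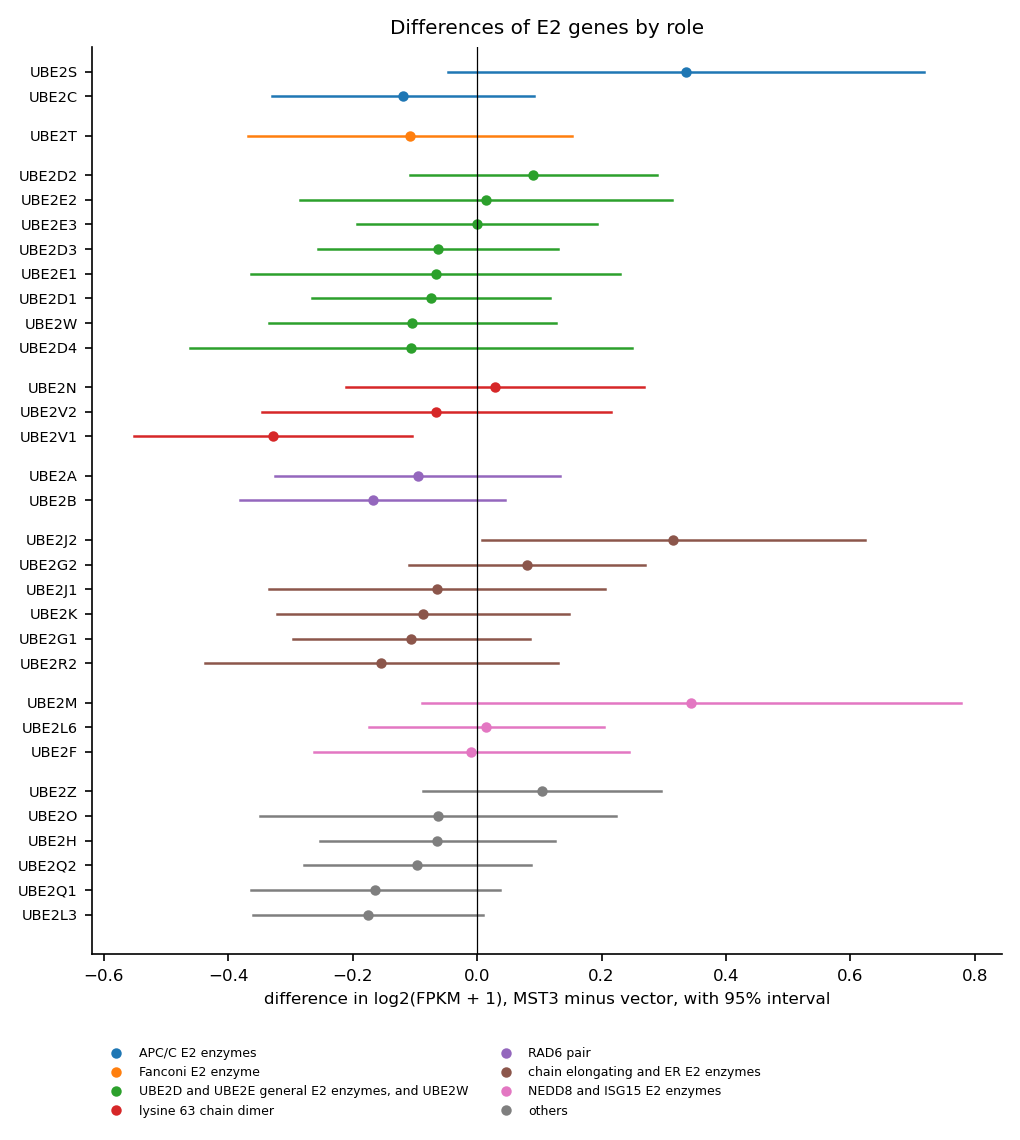
Difference in mean log2(FPKM + 1), MST3 minus vector, of 31 tested E2 genes with its 95% interval from limma (n = 3 libraries a group), grouped and coloured by role. Only the intervals of UBE2V1 and UBE2J2 leave out 0, and none of the 31 differences passed the adjusted threshold.

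The E2 enzymes of the APC/C were the most abundant of the family and did not share a direction. UBE2C (chr20:45812576-45816957, GRCh38), which primes the chains, stood at 108.5, 120.6 and 116.5 FPKM with vector and at 109.5, 108.7 and 99.7 with MST3. MST3 replicate 3 was lowest, and the other MST3 libraries lay within the vector range. The difference was -0.12 on the log2 scale (SE 0.09, 95% interval -0.33 to 0.09, unadjusted p = 0.224, adjusted p = 0.726, limma), and -0.08 when MST3 replicate 3 was left out.

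UBE2S (chr19:55399745-55407777), which extends the chains through lysine 11 of ubiquitin, stood at 112.8, 100.3 and 113.6 FPKM in vector replicates 1 to 3 and at 132.8, 112.2 and 174.5 in MST3 replicates 1 to 3. MST3 replicate 3 stood far above the rest, and MST3 replicate 2 lay within the vector range. Means were 109 ± 7.46 and 140 ± 31.8 FPKM (SD, n = 3), a difference of 0.34 on the log2 scale (SE 0.16, 95% interval -0.05 to 0.72, unadjusted p = 0.0768, adjusted p = 0.719, limma). Leaving out MST3 replicate 3 gave a difference of 0.17, and leaving out MST3 replicate 2 gave 0.48. The processed pseudogene UBE2SP1 shares sequence with UBE2S, and it held 38 to 134 reads a library against 4793 to 8338 for the gene.

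UBE2T (chr1:202331657-202341980), the E2 that monoubiquitinates FANCD2 and FANCI with the ligase FANCL, stood at 30.3, 35.7 and 28.8 FPKM in the vector libraries and at 28.7, 31.9 and 26.9 in the MST3 libraries. The groups overlap, and replicate 2 was the highest library in both of them. The difference was -0.11 (SE 0.11, 95% interval -0.37 to 0.15, unadjusted p = 0.361, adjusted p = 0.771, limma). It ranged from -0.17 when MST3 replicate 2 or vector replicate 3 was left out to -0.05 without MST3 replicate 3 and -0.02 without vector replicate 2.

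The general E2 enzymes, UBE2D1 to UBE2D4, UBE2E1 to UBE2E3 and UBE2W, differed little between the groups. UBE2D enzymes serve many RING and HECT ligases, and UBE2W places the first ubiquitin on a protein's amino terminus. Mean levels ran from 1.3 FPKM for UBE2D4 to 25.9 for UBE2D3, and within the UBE2D group UBE2D3 and UBE2D2 (24.2 FPKM) stood above UBE2D1 (6.19 FPKM) in every library. The 8 differences lay between -0.11 and 0.09, with 6 below 0 and 2 above, and all 8 sets of libraries overlap.

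The lysine 63 chain dimer pairs the catalytic UBE2N with a non-catalytic variant, UBE2V1 or UBE2V2, and builds chains that signal in DNA damage tolerance and NF-kB activation rather than mark proteins for the proteasome. UBE2V1 (chr20:50081124-50115959) had the smallest p of the family. FPKM was 2.48, 2.96 and 2.70 with vector and 1.81, 2.04 and 2.01 with MST3. All 3 MST3 libraries lay below all 3 vector libraries. The means of 2.71 ± 0.238 and 1.95 ± 0.127 FPKM (SD, n = 3) differed by -0.33 on the log2(FPKM + 1) scale, which understates the change of a gene this low, and had a ratio of 0.721 (SE of the log2 difference 0.10, 95% interval -0.55 to -0.10, unadjusted p = 0.0101, adjusted p = 0.719, limma).

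The counting of UBE2V1 reads is uncertain. UBE2V1 shares 42.9% of its exon bases with the readthrough gene TMEM189-UBE2V1, which is listed at 0 in all 6 libraries. On the same strand, 34.15% of the UBE2V1 windows of 100 bases occur in another gene's transcripts. All of these windows occur in TMEM189-UBE2V1, so this share reflects the same readthrough. UBE2V1 held 210, 244 and 227 reads with vector and 139, 171 and 166 with MST3. Its pseudogene UBE2V1P2 held 5, 5 and 7 reads with vector and 30, 16 and 10 with MST3, so that its groups lie apart in the other direction. With its 15 pseudogenes added, the ratio of mean reads, MST3 to vector, was 0.78, against 0.699 for UBE2V1 alone. These ratios are of reads not scaled for library depth, unlike the ratio of mean FPKM given above.

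The partners of UBE2V1 overlapped between the groups. UBE2N ranged from 12.9 to 14.7 FPKM in the vector libraries and from 12.5 to 15.5 in the MST3 libraries, a difference of 0.03 (95% interval -0.21 to 0.27). UBE2V2, the variant tied to DNA damage tolerance, was at 10.5 to 12.0 and at 9.03 to 12.5 FPKM, a difference of -0.07 (95% interval -0.35 to 0.22). UBE2N shares 39.5% of its exon bases with NUDT4 on the opposite strand, which stood at 4.9 to 6.17 FPKM, and whether the counting used strand is not stated. The same limit holds for UBE2A, which shares 18.1% with NKRF on the opposite strand (4.86 to 6.26 FPKM). UBE2D4 shares 15.5% with POLR2J4 and 11.6% with AC004951.4, both on the opposite strand and at most 0.422 FPKM.

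UBE2A and UBE2B are the human pair of yeast RAD6, which ubiquitinates PCNA with RAD18 and histone H2B with RNF20 and RNF40. UBE2B (chr5:134371179-134391992) stood at 13.4, 16.3 and 14.2 FPKM with vector and at 12.8, 13.2 and 12.7 with MST3. The groups do not overlap, although vector replicate 1 and MST3 replicate 2 lay close together. The difference was -0.17 (SE 0.09, 95% interval -0.38 to 0.05, unadjusted p = 0.106, adjusted p = 0.719, limma), and -0.09 when vector replicate 2 was left out. UBE2A lay at 9.01 to 11.3 FPKM in the vector and 8.82 to 9.64 in the MST3 libraries, with overlap, and differed by -0.10.

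**Figure D3:**
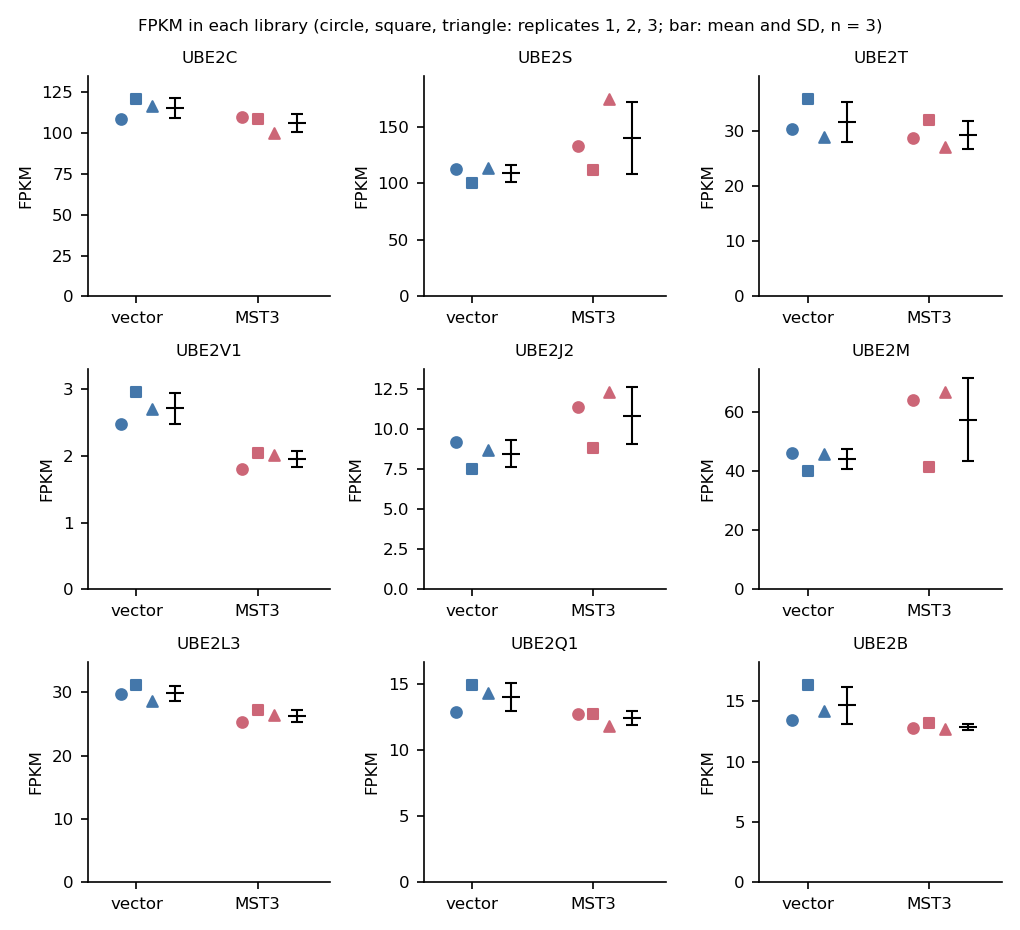
FPKM in each library for 9 E2 genes, with vector in blue, MST3 in red, a symbol for each replicate number and a bar for the mean and SD (n = 3). In UBE2S, UBE2J2 and UBE2M the MST3 replicate 2 square stays within the vector range, while in UBE2V1, UBE2L3, UBE2Q1 and UBE2B every MST3 symbol lies below every vector symbol.

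Among the chain-elongating E2 enzymes and those of the endoplasmic reticulum (ER), 4 of 6 were below 0 and 2 above. UBE2J2 (chr1:1253909-1273885), a membrane-anchored E2 of ER-associated degradation, stood at 9.19, 7.53 and 8.67 FPKM in vector replicates 1 to 3 and at 11.4, 8.84 and 12.3 in MST3 replicates 1 to 3. MST3 replicates 1 and 3 lay above all vector libraries and MST3 replicate 2 among them. The difference was 0.32 (SE 0.13, 95% interval 0.01 to 0.62, unadjusted p = 0.0453, adjusted p = 0.719, limma), and it became 0.23 when MST3 replicate 3 was left out and 0.44 when MST3 replicate 2 was.

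UBE2R2, which extends lysine 48 chains with cullin-RING ligases, stood at 35.8, 39.3 and 35.1 FPKM in the vector libraries and at 27.7, 35.8 and 35.9 in the MST3 libraries. MST3 replicate 1 alone was low. The difference was -0.15 (SE 0.12, unadjusted p = 0.241, adjusted p = 0.726, limma), and without MST3 replicate 1 it was -0.03. UBE2G1, another lysine 48 E2 for cullin ligases, stood at 17.9, 17.8 and 16.8 FPKM and at 15.1, 16.6 and 16.9 FPKM, with overlap at the upper MST3 value and a difference of -0.11 (unadjusted p = 0.233, adjusted p = 0.726, limma), which was -0.06 when MST3 replicate 1 was left out. UBE2J1, the other membrane-anchored ER enzyme, UBE2K and UBE2G2 differed by -0.06, -0.09 and 0.08, all with overlap.

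Of the E2 enzymes for other modifiers, the NEDD8 enzyme UBE2M (chr19:58555712-58558960) had the most positive difference of the family. UBE2M, which loads NEDD8 onto cullins with RBX1, stood at 46.2, 40.02 and 45.9 FPKM with vector and at 64.1, 41.2 and 66.7 with MST3. As in UBE2S and UBE2J2, MST3 replicates 1 and 3 were above all vector libraries and MST3 replicate 2 was not. The difference was 0.34 (SE 0.18, 95% interval -0.09 to 0.78, unadjusted p = 0.102, adjusted p = 0.719, limma), 0.56 without MST3 replicate 2 and 0.22 without MST3 replicate 3. The other NEDD8 enzyme, UBE2F, which serves CUL5 with RNF7, was at 2.04 ± 0.234 and 2.02 ± 0.201 FPKM (SD, n = 3), a difference of -0.01. The ISG15 enzyme UBE2L6 stood at 9.71 to 10.6 FPKM with vector and 9.62 to 10.9 with MST3, with overlap, and differed by 0.01 (95% interval -0.17 to 0.20).

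The remaining members have other partners. UBE2L3, which works with HECT and RING-between-RING ligases such as parkin and HOIP, stood at 29.6, 31.1 and 28.7 FPKM in vector replicates 1 to 3 and at 25.3, 27.2 and 26.3 in MST3 replicates 1 to 3. The groups do not overlap, and the difference was -0.18 (SE 0.08, 95% interval -0.36 to 0.01, unadjusted p = 0.0596, adjusted p = 0.719, limma). UBE2Q1 stood at 12.9, 14.9 and 14.4 FPKM and at 12.8, 12.7 and 11.8 FPKM, again without overlap but with vector replicate 1 close to the MST3 values. Its difference was -0.16 (SE 0.09, unadjusted p = 0.0951, adjusted p = 0.719, limma). UBE2Q2 was at 4.42 FPKM in each vector library and at 4.22, 4.29 and 3.73 in the MST3 libraries, a difference of -0.10 (unadjusted p = 0.256, adjusted p = 0.731, limma) that was -0.05 when MST3 replicate 3 was left out.

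UBE2H, the E2 of the CTLH ligase complex, was the third most abundant member. It stood at 55.4, 59.8 and 56.8 FPKM in the vector libraries and at 53.0, 55.9 and 55.6 in the MST3 libraries, with overlap and a difference of -0.06 (SE 0.08, 95% interval -0.25 to 0.12), or -0.03 when vector replicate 2 was left out and -0.04 when MST3 replicate 1 was. UBE2O, a large enzyme that combines E2 and E3 functions, and UBE2Z, which takes ubiquitin or FAT10 from UBA6, differed by -0.06 and 0.10. UBE2O spread more in the MST3 libraries (26.9 to 37.2 FPKM) than in the vector libraries (32.5 to 33.6).

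The 5 members that were not tested had almost no reads. UBE2U and UBE2QL1 were listed at 0 in all 6 libraries, and a count of 0 allows up to 3 reads a library. UBE2L5 was at 0 in the vector libraries and at 0.029, 0.159 and 0.027 FPKM in the MST3 libraries, which are 1, 6 and 1 reads. UBE2Q2L had 0 to 13 reads a library and UBE2F-SCLY 0 to 2, too few for a comparison. Of the 50 UBE2 pseudogenes in the table, 7 were tested, and the highest was UBE2SP1 at a mean of 8.65 FPKM.

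The differences of E2 genes moved with the GC content of their transcripts. Pearson's r between GC content and the log2 difference was 0.54 across the 32 members and 0.33 across 12933 tested genes, a description across genes of the same 6 libraries that share depth and composition. At a GC content of 55% or more, 5 of 6 members were above 0 (median 0.17, against 0.10 for 3831 genes). Below 40%, all 6 members were below 0 (median -0.08, against -0.07 for 2062 genes). UBE2M (65.7% GC), UBE2J2 (59.3%) and UBE2S (55.7%), the 3 members with the most positive differences, are all on the GC-rich side. Across all tested genes, a library's deviation from the mean vector level correlated with GC content at r = 0.58 in MST3 replicate 3, 0.17 in MST3 replicate 1 and -0.13 in MST3 replicate 2, with -0.28 to 0.16 in the vector libraries.

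With each library's trend with length and GC content removed, an alternative added after the data were seen, UBE2M differed by 0.17, UBE2S by 0.26, UBE2J2 by 0.24 and UBE2V1 by -0.25. The median member was then at -0.01, 17 of 32 were below 0 and 5 had an unadjusted p under 0.05, none of them called, where 7% of all tested genes had such a p in that fit. UBE2C and UBE2L3 were among the 5, at -0.17 (unadjusted p = 0.042, limma) and -0.21 (unadjusted p = 0.0178, limma). UBE2Z was also among them, in the other direction, at 0.18 (unadjusted p = 0.044, limma). The part of library composition in these differences was otherwise not tested.

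**Figure D4:**
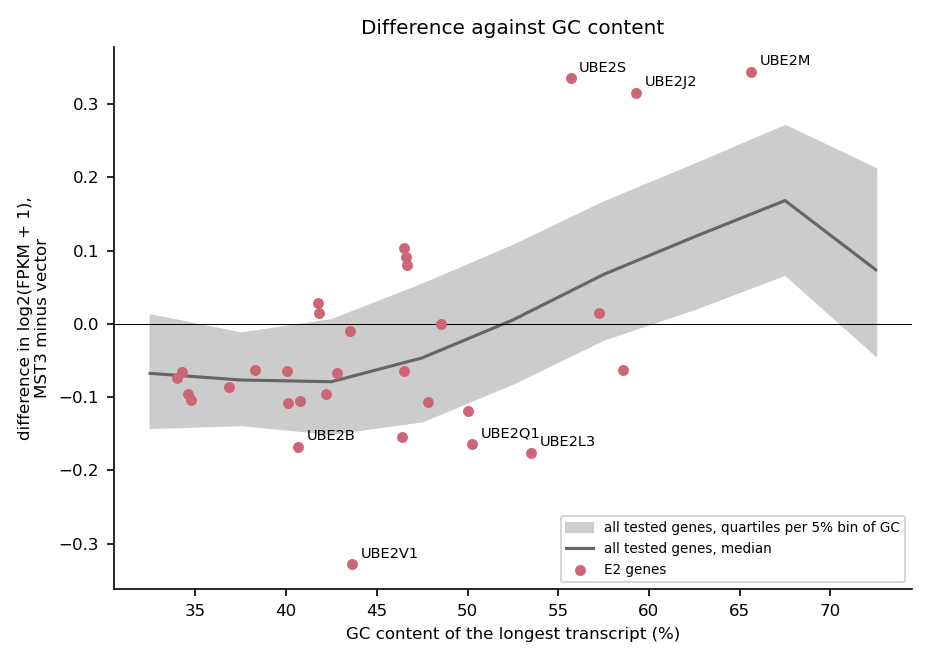
Difference in mean log2(FPKM + 1), MST3 minus vector, against the GC content in percent of the longest transcript, for 31 tested E2 genes (points) and for all tested genes (line, median, and grey band, quartiles, in 5% bins). UBE2S, UBE2J2 and UBE2M lie above the band at 55.7, 59.3 and 65.7% GC, and UBE2V1 lies farthest below it.

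The enzymes and ligases that work with E2 enzymes gave no called gene either. Of 126 genes in 10 lists by role, 123 were tested, 33 differences were above 0 and 90 below, and the median was -0.06. An unadjusted p under 0.05 was reached by 5 of the 123, where 5.38% of all tested genes reached it. This is 90 of 123 below 0 against 53.4% of all tested genes. Without overlap of groups, 9 of the 123 were lower with MST3 and 3 higher, where 6.7% and 5.19% of all tested genes were. Values for these genes are mean FPKM ± SD with n = 3, vector first, and each named gene is among the 3 of its list with the smallest p.

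Upstream of the E2 enzymes, 7 of 8 tested E1 genes were below 0. UBA6, the E1 that charges UBE2Z, stood at 13.1 ± 0.605 and 11.3 ± 1.05 FPKM, and UBA2, a subunit of the SUMO E1, at 42.4 ± 2.28 and 36.3 ± 3.95, both with overlap. Of the modifiers, 5 were above 0 and 7 below. ISG15 (105 ± 4.4 and 126 ± 15.2) and the polyubiquitin gene UBB (151 ± 3.12 and 175 ± 14.1) were higher with MST3 than with vector in every library, with an adjusted p of 0.719 (limma) for each. Of E2 and E2-like genes with other names, 4 were above 0 and 4 below, among them CDC34, the cullin E2 related to UBE2R2 (39.4 ± 3.73 and 47.3 ± 7.63, overlap), and TSG101, an E2-like protein of endosomal sorting (16.1 ± 1.00 and 13.5 ± 1.08, no overlap).

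Downstream of UBE2C and UBE2S, the 19 tested APC/C subunits, activators and inhibitors split into 7 above 0 and 12 below. The small subunit CDC26 (6.43 ± 0.204 and 7.77 ± 1.01) and the subunit it binds, CDC16 (13.1 ± 0.786 and 11.3 ± 0.817), stood apart without overlap in opposite directions. Of 16 APC/C substrates and mitotic regulators, 15 were below 0 and NUSAP1 was above, with a median of -0.07 and no gene at an unadjusted p under 0.05. TPX2, which activates Aurora A on the spindle, had the smallest p of these (88.8 ± 5.84 and 77.4 ± 9.26, unadjusted unadjusted p = 0.117, adjusted p = 0.719, limma). For UBE2T, 9 of 12 Fanconi anaemia genes were below 0. FANCD2, the protein that UBE2T modifies, stood at 9.62, 11.4 and 9.79 FPKM with vector and at 7.75, 8.71 and 8.84 with MST3, without overlap and with a difference of -0.26 (unadjusted p = 0.0291, adjusted p = 0.719, limma).

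Of the ligases paired with the RAD6 enzymes, 8 of 9 were below 0 (median -0.11), with BARD1 first by p (4.20 ± 0.417 and 3.67 ± 0.304). Among cullins and their NEDD8 machinery, 11 of 16 were below 0, with CUL4B at 15.7 ± 0.736 and 13.04 ± 1.97, overlapping. Of the SUMO ligases and proteases, 9 of 11 were below 0, and 2 had an unadjusted p under 0.05 (5.38% of all tested genes did), the SUMO proteases SENP5 (6.63 ± 0.485 and 5.65 ± 0.181, no overlap) and SENP3 (4.56 ± 0.554 and 6.04 ± 1.10, overlap). ER-associated degradation genes were below 0 in 8 of 12 cases, with the ER ligase RNF139 first by p (21.4 ± 0.990 and 18.3 ± 2.35).

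**Figure D5:**
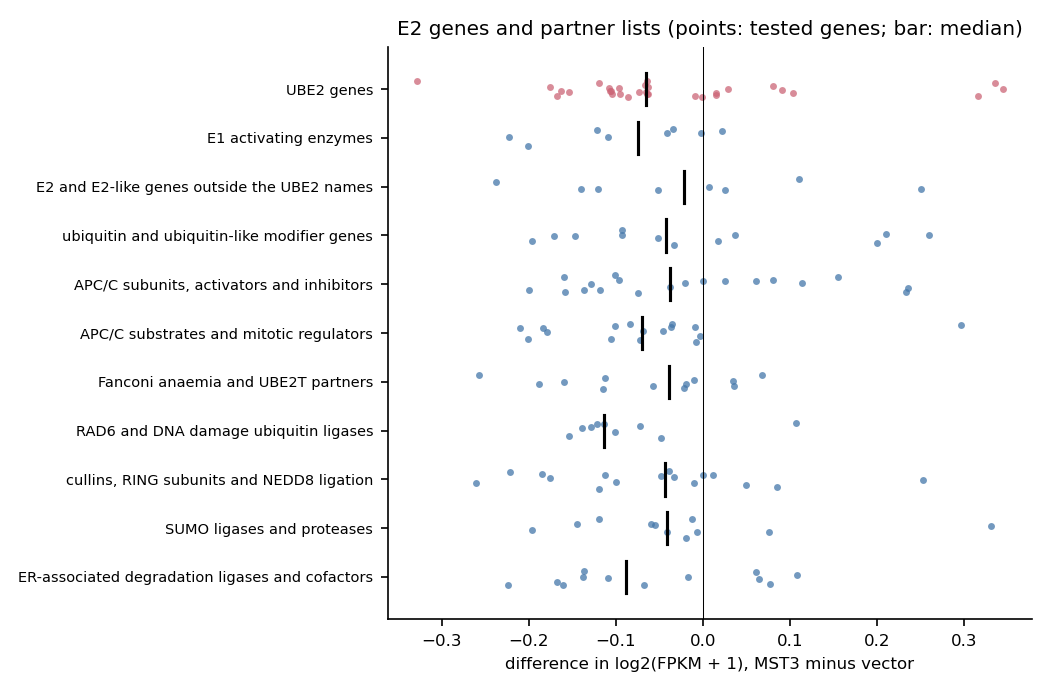
Difference in mean log2(FPKM + 1), MST3 minus vector, of each tested gene (point) for 31 E2 genes and 10 lists of partner genes, with a bar at each list's median. All medians lie between -0.11 and -0.02, and no gene drawn passed an adjusted p of 0.05 in limma.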

How the data were processed

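Per the labels, the authors sequenced total RNA of 6 HCT116 samples, 3 per group. They deposited 1 table of FPKM values per gene, scaled per library by a factor the sources used here do not state. HISAT2 is named per the submitters' processing notes, while the sources used here do not give the counting program, strand setting or annotation. All 58735 Ensembl entries match the positions and merged exon lengths of GENCODE 29 on GRCh38. FPKM times length was a whole multiple of 1 read in 100% of values (tolerance 0.01), which gave the reads per gene.

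The test was limma 3.58.1 on log2(FPKM + 1) (R 4.3.3, intensity trend, two-sided), applied to the 13036 genes averaging 1 FPKM or more, with Benjamini-Hochberg adjustment over all of them and a threshold of 0.05. An exact permutation test of 3 against 3 libraries could not go below 0.1. The fit was tested on simulated data. Members, partner lists and tests were chosen with earlier results of these data known. Values in all 6 libraries are given for UBE2C, UBE2S and UBE2T, the 5 most abundant members, the 10 with the smallest p and those without overlap of groups. Up to 3 genes per partner list, by smallest p, are named with their means. NUSAP1 and UBE2V1P2 are named outside this rule, with their values known. Alternatives varied the pseudocount, filter, scaling, variance model, replicate block and libraries, and used voom on recovered reads. The counts cover all 32 tested members, 1 of which is not reported here by name or in the plots.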

Additional observations from a re-analysis of the deposited data

How the results depend on the processing

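STK24 was the only gene called and no E2 gene was called under any of 21 alternatives. The number of E2 genes at an unadjusted p under 0.05, 2 as reported, was 1 with a filter of 5 FPKM (where 5.52% of all genes reached that p), 1 with no variance trend (5.15%), 4 with the replicate number as a block (10.3%), 4 with voom on recovered reads (6.68%) and 5 with length and GC trends removed (7%). It ranged from 1 to 6 with each library left out, with 6 when MST3 replicate 2 was left out (19.5% of all genes). The number was 1 without vector replicate 2 (2.31% of all genes), vector replicate 3 (3.97%), MST3 replicate 1 (3.45%) or MST3 replicate 3 (6.74%). The members' median log2 difference was -0.0072 with length and GC trends removed and ranged from -0.1146 to -0.0134 with a library left out. UBE2V1 kept its direction in 20 alternatives, with an unadjusted p of 0.00723 to 0.0474.

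Deviations of same-numbered libraries correlated at 0.016, 0.226 and 0.035, and those of differently numbered libraries at -0.148 to 0.122. These few correlations cannot settle whether replicate numbers pair the libraries. In the fit with the replicate block, 1338 genes in all had an unadjusted p under 0.05, and the smallest adjusted p of a member was 0.482.

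Of the 31 members reported singly, 19 kept their direction throughout. UBE2E3 reversed to 0.0098 with equal library sums, 0.0204 with median-of-ratios factors, 0.0084 with sample weights, 0.0336 with voom and 0.0092 with length and GC trends removed. UBE2F reversed to 0.0053 with median-of-ratios factors, 0.0248 with voom and 0.0631 with length and GC removed. With the length trend removed, UBE2D3 was at 0.0019, UBE2L6 at -0.037 and UBE2E2 at -0.0071. With length and GC removed, UBE2D3 was at 0.051, UBE2L6 at -0.0867, UBE2H at 0.0137, UBE2V2 at 0.0139 and UBE2J1 at 0.015. With 1 library left out, ranges crossed 0 for UBE2E3 (-0.0589 to 0.0318), UBE2L6 (-0.0231 to 0.0608), UBE2J1 (-0.1557 to 0.0217), UBE2F (-0.0749 to 0.0314), UBE2N (-0.0498 to 0.096), UBE2E2 (-0.0678 to 0.1266), UBE2O (-0.1758 to 0.0512), UBE2E1 (-0.141 to 0.0549), UBE2V2 (-0.1716 to 0.0418) and UBE2D4 (-0.2004 to 0.0199). The cause was not tested. The fewest reads behind a tested member in any library were 69, for UBE2D4.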
